A study of Homo sapiens with 23 samples.

Results

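Day 10 of a cardiomyocyte differentiation was compared with the days on either side of it, to describe genes that stood high or low at day 10 against both. The comparison used 8 of the 23 libraries of the series: 3 from day 7, 2 from day 10 and 3 from day 14. All were made from H1-hESC, an established human embryonic stem cell line, with the genotype given as WT in every group. Per the labels, the day 7 cells were cardiac progenitors and the cells of days 10 and 14 were cardiomyocytes. Pluripotent cells were kept in mTesR1 and the derived cardiomyocytes in RPMI with insulin, and total RNA was depleted of ribosomal RNA before sequencing. The labels do not say whether replicates came from separate differentiations. Unless stated otherwise, every p-value is set against the spread among replicate libraries of a day, estimated over all 23 libraries of the series. That spread may be technical.

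A gene was called when day 10 differed from the mean of days 7 and 14 by edgeR's quasi-likelihood test at a Benjamini-Hochberg adjusted p under 0.05, over all 22245 genes tested. It was counted as a peak when, in addition, both day 10 libraries lay above all 6 flanking libraries in CPM (counts scaled to the size of the library), and as a dip when both lay below. The test called 89 genes higher at day 10 (0.400% of those tested) and 6 lower (0.0270%). Of these, 68 were peaks (0.306%) and 5 were dips (0.0225%), which gives 73 transient genes. Without the requirement of a call, both day 10 libraries lay above all 6 others for 1018 genes (4.58%) and below for 555 (2.49%). At an unadjusted p under 0.05 by edgeR's test, 1279 of the 22245 genes were higher and 628 lower. The rule had its threshold in the adjusted p: the last peaks inside it were UAP1L1 and ASNS (adjusted p = 0.0479) and GHRH (0.0493), and the first genes outside were MAP2K1 (0.0513) and CMC2 (0.0529).

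As background, the early heart tube expresses natriuretic peptide hormones that later become largely atrial and return in loaded or injured ventricle. Cardiac muscle cells also respond to stretch and to changes of the actin skeleton through the YAP and TEAD proteins and through serum response factor, whose targets include matricellular and sarcomere-associated genes. The embryonic heart relies strongly on glycolysis, whose enzymes are under the control of hypoxia-inducible factors among others, before fatty acid oxidation takes over. In RNA from a mixed population, more cells of a type and more RNA per cell cannot be told apart.

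Total counts per library lay between 4506749 and 8889988 in the 8 libraries, which limits the precision of weakly expressed genes, and across genes, replicate libraries of a day correlated at a Pearson's r of 0.980 to 0.992. Cardiomyocyte markers, summed over 11 genes, stood at 16883 to 19440 CPM at day 7, 30834 to 33115 at day 10 and 28272 to 30467 at day 14. Markers of endothelium, 0 of 12 called (2 at an unadjusted p under 0.05), summed to 676 to 687, 376 to 421 and 201 to 260 CPM on the 3 days. Fibroblast and stroma markers, 0 of 12 called, summed to 1054 to 1522, 1019 to 1332 and 486 to 742 CPM. Epicardium markers, 0 of 10 called, summed to 833 to 1045, 422 to 613 and 187 to 317 CPM. Markers of endoderm and liver, 0 of 14 called, stood at 552 to 597 CPM at day 7 and 978 to 5603 at day 14, and differed between the day 10 libraries, at 341 and 961 CPM. The part of other cell types in the results was not tested. A list of small structured RNAs, of which 8 members were tested and 0 called, summed to 57381 to 65987 CPM at day 10, against 21934 to 45985 at day 7 and 19013 to 22553 at day 14. Most of this was RN7SL2, the RNA of the signal recognition particle, at 62759 and 55241 CPM at day 10, and its part in the results was not tested. Day 14 replicate 2 stood apart for these genes: it was the highest library of its day for 49 of the 68 peaks, against 33.6% of all genes tested.

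**Figure D1:**
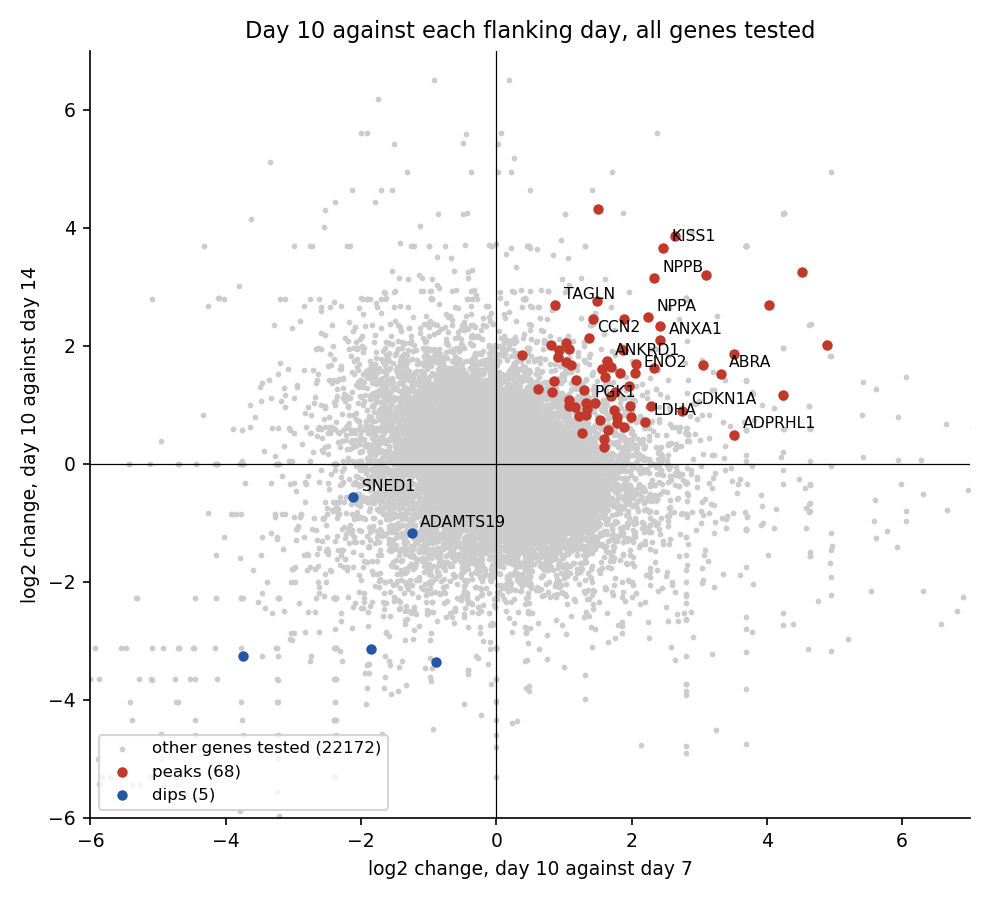
Log2 change of day 10 against day 7 (horizontal) and against day 14 (vertical) for the genes tested, with the 68 peaks in red, the 5 dips in blue and other genes in grey; 34 genes lie outside the axes. Both axes share the day 10 libraries, and every peak lies above 0 on both.

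Both natriuretic peptide hormone genes were peaks, at several times their levels on the flanking days. NPPA, which encodes atrial natriuretic peptide (ENSG00000175206, chr1:11845709-11848345 in GRCh38, minus strand), stood at 127, 152 and 147 CPM in the day 7 libraries, at 671 and 675 CPM at day 10, and at 96.6, 158 and 107 CPM at day 14. Days 7 and 14 overlapped. Day 10 overlapped neither, as the definition of a peak requires, and the lower day 10 library was far above the highest flanking one. The mean at day 10 was 673 ± 2.85 CPM (SD, n = 2), 4.73-fold that of day 7 and 5.59-fold that of day 14. In the contrast NPPA was higher by 2.36 on the log2 scale (SE 0.28, adjusted p = 0.000153), and it was called against day 7 alone (2.24, adjusted p = 0.000217) and day 14 alone (2.48, adjusted p = 0.000134). NPPA kept its call without each of the 8 libraries, with an adjusted p of at most 0.00268.

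NPPB, the gene of brain natriuretic peptide (ENSG00000120937, chr1:11857464-11858945, minus strand), stood at 46.3, 62.6 and 79.4 CPM at day 7, at 251 and 381 CPM at day 10, and at 9.70, 76.0 and 21.6 CPM at day 14. Its day 14 libraries differed widely among themselves, with replicate 2 the highest, yet all 3 lay far below day 10. NPPB was higher by 2.74 (SE 0.43, adjusted p = 0.00221), and without day 10 replicate 2 it no longer passed (2.39, adjusted p = 0.0796). With only the 8 libraries of these days in the fit its adjusted p was 0.109. Of the 11 tested genes of natriuretic peptides, their processing enzymes and receptors, these 2 were called higher, against 0.400% of all genes, and none lower. The list's median change was 0.14, against 0.02 over all genes tested. NPR2, the receptor of C-type natriuretic peptide, did not overlap either but did not pass (0.45, adjusted p = 0.753).

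**Figure D2:**
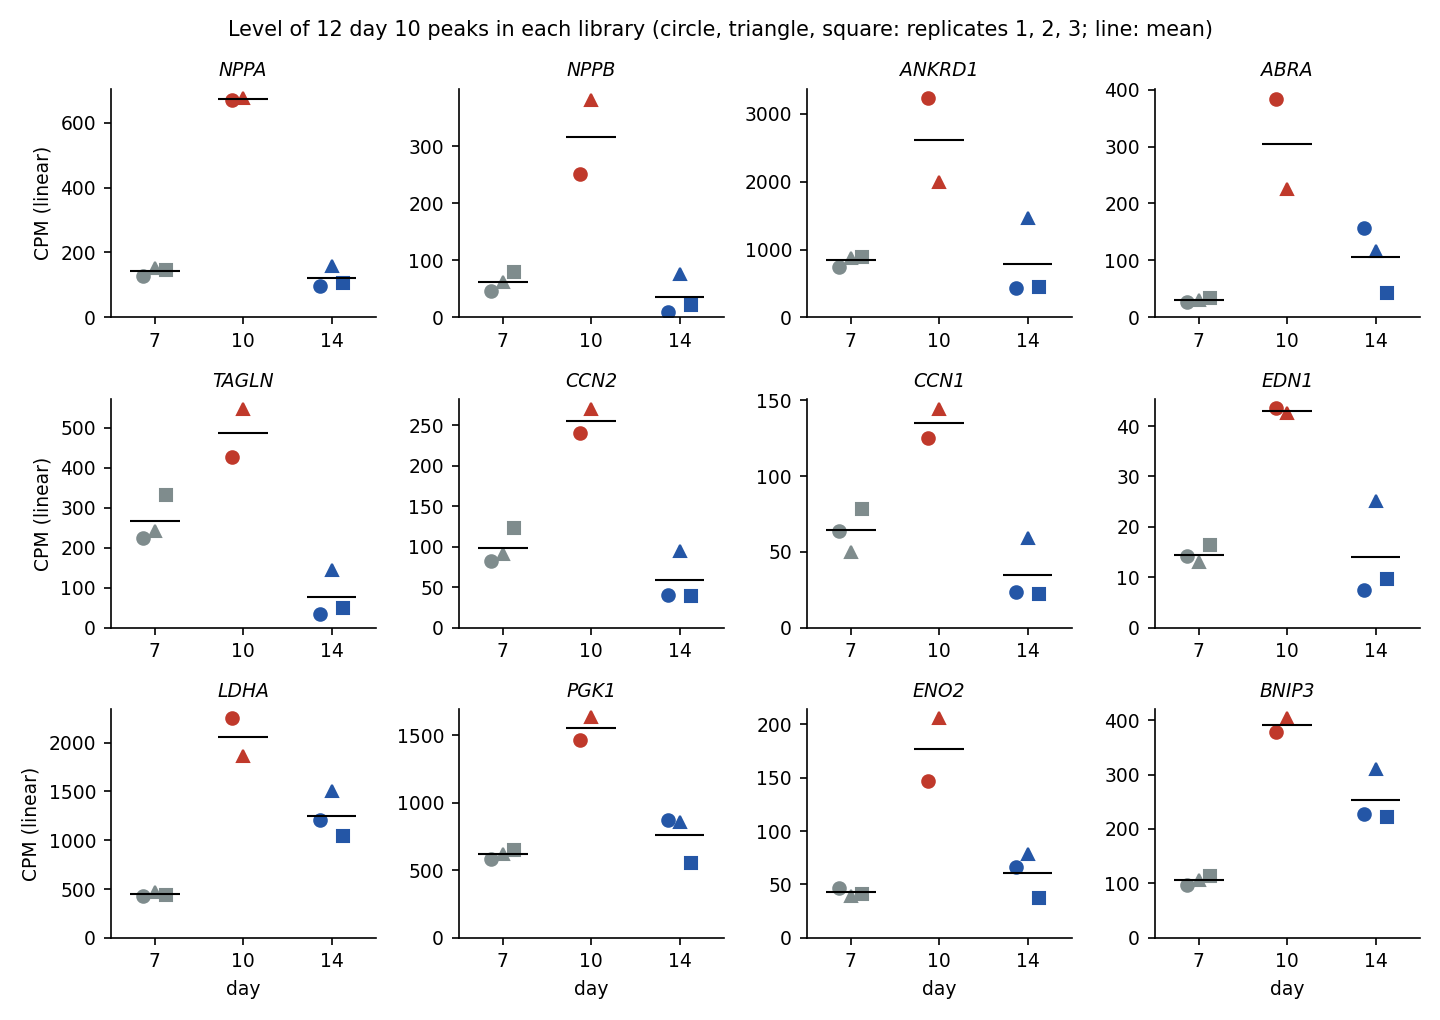
Level in CPM (linear axis) of 12 peaks in the 8 libraries of days 7, 10 and 14, with 1 point per library and a line at each day's mean. In all 12 panels both day 10 libraries lie above the other 6, as the definition of a peak requires, and day 14 replicate 2 (triangle) is often the nearest.

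Further peaks were ANKRD1, CCN2, CCN1 and TAGLN, and no list of YAP, TEAD or serum response factor targets was examined. ANKRD1, a nuclear and sarcomeric ankyrin repeat protein of muscle (ENSG00000148677, chr10:90912096-90921087, minus strand), stood at 746, 877 and 896 CPM at day 7, at 3227 and 1995 CPM at day 10, and at 437, 1461 and 447 CPM at day 14. Both day 10 libraries were the highest, but they differed by over 1.5-fold from each other and day 14 replicate 2 came near the lower one. ANKRD1 was higher by 1.69 (SE 0.35, adjusted p = 0.0221). Its call ended without day 10 replicate 1 (1.33, adjusted p = 0.526), without day 10 replicate 2 (1.98, adjusted p = 0.0931), and without replicates 1 or 3 of day 14 or replicates 1 or 2 of day 7 (adjusted p from 0.0516 to 0.0717). The call also ended with library totals alone as the scaling (1.55, adjusted p = 0.0630) and with only the 8 libraries in the fit (1.67, adjusted p = 0.139).

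CCN2, a matricellular growth factor (ENSG00000118523, chr6:131948176-131951372, minus strand), stood at 82.0, 91.4 and 123 CPM at day 7, at 240.4 and 270.3 CPM at day 10, and at 40.6, 94.4 and 39.5 CPM at day 14. The day 10 values were close to each other and far above the rest. CCN2 was higher by 1.75 (SE 0.28, adjusted p = 0.00221), a call that ended without day 10 replicate 2 (1.65, adjusted p = 0.0960). CCN1, its close relative, stood at 63.9, 50.0 and 78.5 CPM at day 7, at 125 and 145 CPM at day 10, and at 23.6, 59.3 and 21.95 CPM at day 14. It was higher by 1.51 (SE 0.31, adjusted p = 0.0198) and was called against day 14 alone (1.95, adjusted p = 0.00339) but not against day 7 alone (1.07, adjusted p = 0.0699). The contrast no longer passed for CCN1 without either day 10 library (adjusted p = 0.104 and 0.248), without day 14 replicate 3 (0.0604) or without day 7 replicate 2 (0.0609), or with only the 8 libraries in the fit (0.0652).

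The promoters of ANKRD1 and CCN2 are shown because they hold the letters GGAATG, the core of the site bound by TEAD proteins, more than once. The sequences are the 250 bases before the start given by RefSeq on GRCh38.p14, read 5′ to 3′ on the gene's strand, and capitals mark GGAATG. Either strand was searched for it.
ANKRD1, chr10:90921088-90921337, minus strand: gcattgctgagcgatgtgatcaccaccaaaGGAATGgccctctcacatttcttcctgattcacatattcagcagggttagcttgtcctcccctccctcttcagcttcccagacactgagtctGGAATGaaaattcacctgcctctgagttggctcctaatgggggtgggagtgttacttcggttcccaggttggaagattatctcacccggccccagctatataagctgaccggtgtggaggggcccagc
CCN2, chr6:131951373-131951622, minus strand: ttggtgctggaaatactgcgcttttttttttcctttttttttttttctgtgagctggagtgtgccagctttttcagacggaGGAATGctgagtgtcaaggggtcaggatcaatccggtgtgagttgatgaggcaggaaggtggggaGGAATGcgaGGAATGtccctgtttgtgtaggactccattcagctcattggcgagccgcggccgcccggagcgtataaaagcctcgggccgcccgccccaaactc
A RefSeq promoter was found for 49 of the 68 peaks. GGAATG was in 3 of these 49 (6.12%: ANKRD1, CAMK1G and CCN2), against 11.9% of all 27305 promoters of the same length and 9.72% of those of genes tested, and the share among peaks was below both. The CArG box, the site of serum response factor, was in 1 of 49 (2.04%, KCNK3), against 1.14% of all promoters and 1.07% of those of genes tested. A match describes the letters of the window and is no evidence of binding.

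TAGLN, which encodes transgelin, an actin-binding protein of smooth muscle and of early cardiac muscle (ENSG00000149591, chr11:117199370-117207464, plus strand), stood at 224, 243 and 331 CPM at day 7, at 428 and 546 CPM at day 10, and at 35.1, 144 and 48.3 CPM at day 14. Day 14 was lowest in every library and day 10 highest, with no overlap. TAGLN was higher by 1.78 (SE 0.36, adjusted p = 0.0194), with the larger difference against day 14 (2.68, adjusted p = 0.000950), and against day 7 alone it did not pass (0.87, adjusted p = 0.215). Its call ended without day 10 replicate 1 (adjusted p = 0.0807) or 2 (0.269), day 14 replicate 3 (0.0604) or day 7 replicates 1 (0.0557) or 2 (0.0563), and with only the 8 libraries in the fit (0.131). TAGLN was the only one of 10 smooth muscle markers called in the contrast (0.400% of all genes). The list's median change was 0.58, against 0.02 over all genes. At an unadjusted p under 0.05, 4 members were higher and none lower, against 1279 and 628 of all 22245 genes. For 3 members both day 10 libraries lay above all others, against 4.58% of all genes. Against day 14 alone, 4 were called higher (2.11% of all genes), and against day 7 alone, 1 was lower (3.50%) and none higher. That list summed to 1534 to 1650.5 CPM at day 7, 1734 to 1814 at day 10 and 669.9 to 984 at day 14, and MYH11, its most specific member, lay between 11.5 and 20.3 CPM in all 8 libraries. The part of smooth muscle cells in the level of TAGLN was not tested.

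Of 36 sarcomere genes tested, 5 were called higher (0.400% of all genes) and none lower, with a median change of 0.35 against 0.02 over all genes. ANKRD1 alone was a peak. The other called members, FHL2, ACTA1, MYOZ2 and CSRP3, overlapped a flanking day. Against day 7 alone 14 members were called higher (4.17% of all genes), and against day 14 alone 3 were higher (2.11% of all genes) and 1 lower (1.64%). MYL7, the atrial light chain of myosin, stood at 10322 and 8948 CPM at day 10, above all other libraries (2951 to 6658 CPM), and did not pass (1.24, adjusted p = 0.0998). SLN is sarcolipin, an inhibitor of the calcium pump in atrial muscle. This gene was the only called member among 27 genes of calcium handling and ion channels (0.400% of all genes). It stood at 3.14, 1.81 and 2.18 CPM at day 7, at 5.55 and 7.44 CPM at day 10, and at 0.451, 1.91 and 0.505 CPM at day 14. SLN was higher by 2.12 (SE 0.39, adjusted p = 0.0103) from these low levels, and its call ended without either day 10 library (adjusted p = 0.0673 and 0.269). Of 23 cardiac transcription factors, edgeR called 0, and 0 had an unadjusted p under 0.05.

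Among the enzymes of glycolysis LDHA, ENO2 and PGK1 were peaks, and further steps of the pathway had their highest libraries at day 10 without passing the test. LDHA, a subunit of lactate dehydrogenase that favours lactate (ENSG00000134333, chr11:18394560-18408425, plus strand), stood at 431, 467 and 442 CPM at day 7, at 2248 and 1863 CPM at day 10, and at 1209, 1504 and 1041 CPM at day 14. Day 7 was tight and low, day 14 intermediate, and day 10 highest. LDHA was higher by 1.46 (SE 0.26, adjusted p = 0.00714). It was called against day 7 (2.20, adjusted p = 0.000106) and did not pass against day 14 (0.72, adjusted p = 0.198). Its call in the contrast ended without either day 10 library (adjusted p = 0.219 and 0.0960).

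ENO2, an isoform of the enolase step (ENSG00000111674, chr12:6913745-6923698, plus strand), stood at 47.1, 39.1 and 41.4 CPM at day 7, at 147 and 206 CPM at day 10, and at 66.2, 78.9 and 37.2 CPM at day 14. Days 7 and 14 overlapped, while both day 10 libraries lay above them, as the definition of a peak requires. ENO2 was higher by 1.80 (SE 0.36, adjusted p = 0.0194). PGK1, phosphoglycerate kinase (ENSG00000102144), stood at 586, 622 and 648 CPM at day 7, at 1465 and 1636 CPM at day 10, and at 869.7, 859 and 554 CPM at day 14, and was higher by 1.18 (SE 0.25, adjusted p = 0.0317). Neither call held without each library: for ENO2 it ended without day 10 replicate 1 (adjusted p = 0.0796) or 2 (0.334), day 14 replicate 3 (0.0629) or day 7 replicate 2 (0.0570). For PGK1 it ended without any 1 library but replicates 1 and 2 of day 14 (adjusted p from 0.0619 to 0.392), with library totals alone (0.0792) and with upper-quartile factors (0.0564).

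Of the 24 glycolysis and lactate genes tested, these 3 were called higher (0.400% of all genes) and none lower, and the median change was 0.64 against 0.02 over all genes. For 14 of the 24, both day 10 libraries lay above all 6 others, against 4.58% of all genes. The 11 that were not called among them were HK1, GPI, PFKP, ALDOA, ALDOC, TPI1, GAPDH, PGAM1, ENO1, PKM and SLC2A3, with changes from 0.58 for GPI to 1.24 for SLC2A3. GAPDH, for example, stood at 4178 and 4206 CPM at day 10 and between 1706 and 2749 CPM in the flanking libraries (0.92, adjusted p = 0.155). ENO3, the muscle enolase, had the only negative value (-0.08). The list's median was of like size against day 7 (0.75) and against day 14 (0.73), comparisons that share the day 10 libraries. With the 8 libraries of these days alone in the fit, 13 of the 24 were called higher, and without either day 10 library 0. By unadjusted p under 0.05, 12 of the 24 were higher and 0 lower, against 1279 and 628 of all 22245 genes. Several of these genes, LDHA, PGK1, GAPDH and ENO1 among them, have pseudogene copies that may share reads with them, so their levels are uncertain.

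BNIP3, a mitochondrial protein of mitophagy and a target of hypoxia-inducible factors (ENSG00000176171), stood at 96.9, 107 and 113 CPM at day 7, at 378 and 404 CPM at day 10, and at 228, 311 and 222 CPM at day 14. It was higher by 1.26 (SE 0.25, adjusted p = 0.0198), and was called against day 7 alone (1.89, adjusted p = 0.000327) but not against day 14 alone (0.63, adjusted p = 0.249). Its call ended without any 1 library but day 14 replicate 2 and day 7 replicate 3 (adjusted p from 0.0511 to 0.302) and with library totals alone (1.14, adjusted p = 0.0678). Day 10 lay above both other days in every library, as the definition of a peak requires. LDHA, PGK1 and BNIP3 were the 3 called higher of 28 hypoxia response genes tested (0.400% of all genes), none being lower. The list had a median change of 0.38. Against day 7 alone 12 of its members were called higher (4.17% of all genes), and against day 14 alone 0 (2.11% of all genes), where its median was 0.09. VEGFA, a ligand of that list, lay below all flanking libraries at day 10 and did not pass (-0.35). LDHA and PGK1 promoters are shown with the core letters of the hypoxia response element, ACGTG or GCGTG on either strand, in capitals, for the same window and build. The 2 forms overlap where CACGTG reads alike on both strands.
LDHA, chr11:18394313-18394562, plus strand: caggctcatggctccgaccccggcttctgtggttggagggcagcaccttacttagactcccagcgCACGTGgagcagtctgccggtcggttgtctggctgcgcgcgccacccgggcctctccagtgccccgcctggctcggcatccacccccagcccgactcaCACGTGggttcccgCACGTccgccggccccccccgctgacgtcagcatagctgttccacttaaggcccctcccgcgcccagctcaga
PGK1, chrX:78103998-78104247, plus strand: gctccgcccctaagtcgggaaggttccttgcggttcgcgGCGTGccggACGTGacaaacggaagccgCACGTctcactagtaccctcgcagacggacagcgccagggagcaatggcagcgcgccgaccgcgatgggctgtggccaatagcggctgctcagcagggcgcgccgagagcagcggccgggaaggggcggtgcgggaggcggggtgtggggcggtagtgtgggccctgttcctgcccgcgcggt
ACGTG was in 12 of the 49 peak promoters (24.5%, against 18.7% of all promoters and 22% of those of genes tested). GCGTG was in 19 (38.8%), above the share of all promoters (31.9%) and below that of genes tested (42.4%).

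**Figure D3:**
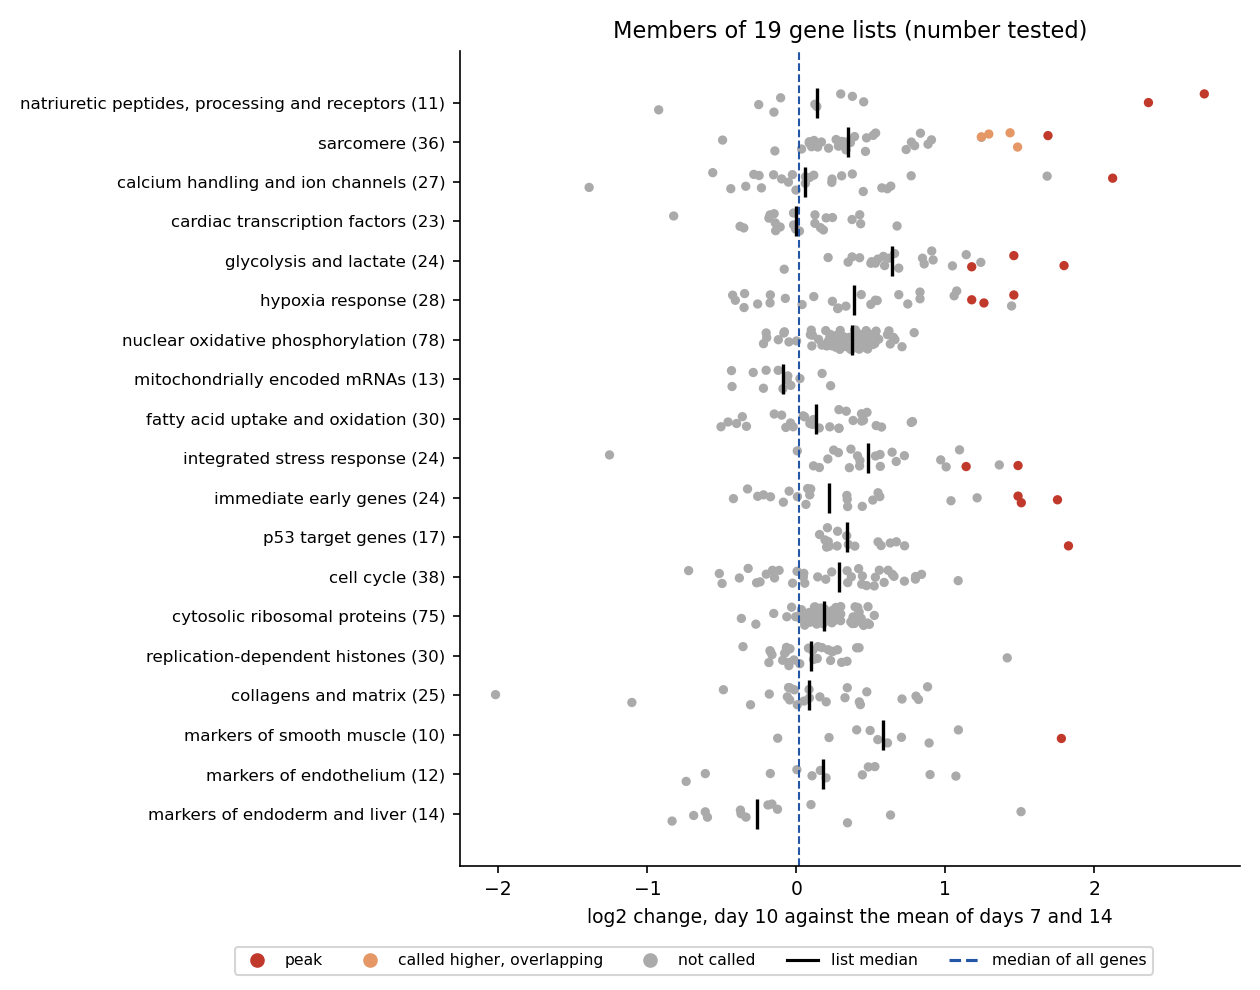
Log2 change of day 10 against the mean of days 7 and 14 for the tested members of 19 gene lists, 1 point per gene, with a black bar at each list's median and a dashed line at the median of all genes (0.02). Peaks are red, called genes that overlap a flanking day are orange, and the glycolysis list has a median of 0.64.

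The lists of p53 targets, the integrated stress response and immediate early genes held 1, 2 and 3 peaks, where peaks were 0.306% of all genes tested. CDKN1A, the p21 inhibitor of cyclin-dependent kinases (ENSG00000124762, chr6:36676460-36687337, plus strand), stood at 65.7, 63.0 and 59.8 CPM at day 7, at 363 and 483 CPM at day 10, and at 202, 339 and 139 CPM at day 14. Day 7 was uniformly low, and day 14 replicate 2 came close to the lower day 10 library. CDKN1A was higher by 1.83 (SE 0.29, adjusted p = 0.00221), a call that ended without day 10 replicate 2 (1.59, adjusted p = 0.0960), and against day 14 alone it did not pass (0.90, adjusted p = 0.149). It was the only one called of 17 p53 target genes tested (0.400% of all genes). The list's median change was 0.34, against 0.02 over all genes. All 17 values were positive, against 11542 of all 22245 genes.

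ATF3, a transcription factor induced by stress, stood at 9.61, 16.6 and 18.1 CPM at day 7, at 45.3 and 55.4 CPM at day 10, and at 12.98, 39.6 and 12.4 CPM at day 14. It was higher by 1.49 (SE 0.31, adjusted p = 0.0211). ASNS, asparagine synthetase, stood at 41.8, 32.4 and 35.0 CPM at day 7, at 97.1 and 114 CPM at day 10, and at 53.8, 82.0 and 54.4 CPM at day 14, and was higher by 1.14 (SE 0.26, adjusted p = 0.0479). In neither gene did day 10 overlap the flanking days, as the definition of a peak requires, and day 14 replicate 2 was nearest to day 10 in both. The call of ATF3 ended without any 1 library but day 14 replicate 2 and day 7 replicate 3 (adjusted p from 0.0501 to 0.345), with library totals alone (0.0535) and with only the 8 libraries in the fit (0.134). That of ASNS ended without any 1 library but day 14 replicate 2 (adjusted p from 0.0780 to 0.523) and with library totals alone (0.158). ATF3 and ASNS were the 2 called of 24 genes of the integrated stress response (0.400% of all genes), which had a median of 0.48. The change was positive for 23 of the 24, against 11542 of all 22245 genes. At an unadjusted p under 0.05, 8 were higher, against 1279 of all genes. Both day 10 libraries lay above all flanking libraries for 6 members, against 4.58% of all genes. They lay below for 1 member, NUPR1, which did not pass the test (-1.25, adjusted p = 0.722). Among 24 immediate early genes CCN1, CCN2 and ATF3 were called higher (0.400% of all genes) and none lower. That list's median was 0.22, against 0.02 over all genes, and ATF3 is counted in both lists.

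Other large peaks, ABRA, ADPRHL1, ANXA1 and TCIM, belonged to no list. ABRA, an actin-binding protein of striated muscle (ENSG00000174429), stood at 27.9, 29.8 and 33.5 CPM at day 7, at 383 and 225 CPM at day 10, and at 158, 117 and 42.4 CPM at day 14. Levels were uniformly low at day 7 and spread widely at day 14, with no overlap. ABRA was higher by 2.42 (SE 0.32, adjusted p = 0.000521) and kept its call without each library.

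ADPRHL1, a protein of the ADP-ribosylhydrolase family found in heart (ENSG00000153531, chr13:113399611-113453488, minus strand), stood at 20.4, 22.6 and 20.6 CPM at day 7, at 247 and 239 CPM at day 10, and at 143, 233 and 142 CPM at day 14. Day 14 replicate 2 lay just under day 10, and ADPRHL1 kept its call without each library. It was higher by 2.01 (SE 0.25, adjusted p = 0.000300) and was called against day 7 alone (3.52, adjusted p = 4.39e-07), while against day 14 alone it did not pass (0.50, adjusted p = 0.368). ANXA1, annexin A1, a phospholipid-binding protein (ENSG00000135046, chr9:73151865-73170393, plus strand), stood at 18.4, 14.6 and 19.9 CPM at day 7, at 121 and 68.4 CPM at day 10, and at 12.5, 42.0 and 11.7 CPM at day 14. It was higher by 2.26 (SE 0.37, adjusted p = 0.00267), a call that ended without day 10 replicate 1 (1.82, adjusted p = 0.201) and with the 8 libraries alone (2.25, adjusted p = 0.0660). TCIM (ENSG00000176907) stood at 10.0, 11.7 and 12.6 CPM at day 7, at 75.4 and 39.7 CPM at day 10, and at 6.66, 37.9 and 11.1 CPM at day 14. Day 14 replicate 2 nearly reached the lower day 10 library, and TCIM was higher by 1.98 (SE 0.39, adjusted p = 0.0176), which did not hold without day 10 replicate 1 (1.47, adjusted p = 0.518) or day 14 replicate 3 (1.84, adjusted p = 0.0570), or with only the 8 libraries in the fit (1.96, adjusted p = 0.155).

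Some further peaks were picked out here after their values were seen. EDN1, the precursor of the vasoconstrictor endothelin-1, stood at 14.1, 13.01 and 16.4 CPM at day 7, at 43.5 and 42.5 CPM at day 10, and at 7.45, 25.1 and 9.71 CPM at day 14 (1.59, SE 0.28, adjusted p = 0.00621). BMP10, a growth factor of the trabecular myocardium, stood at 18.0, 14.3 and 20.3 CPM, then 43.3 and 28.3, then 7.00, 11.2 and 7.82 (1.53, SE 0.31, adjusted p = 0.0224). PRSS23, a serine protease, stood at 107, 89.4 and 109 CPM, then 319 and 299, then 101, 149.8 and 82.3 (1.54, SE 0.21, adjusted p = 0.000653). In all 3 genes the day 10 libraries stood alone at the top, as the definition of a peak requires. The call of EDN1 ended without either day 10 library (adjusted p = 0.103 and 0.0960). That of BMP10 ended without any 1 library but day 14 replicate 2 and day 7 replicate 3 (adjusted p from 0.0563 to 0.523) and with library totals alone (0.0678). MASP1, a protease of the complement system, was at 700.0 and 687 CPM at day 10 and between 206 and 328 CPM in the flanking libraries (1.30, adjusted p = 0.00714), a call that ended without either day 10 library (adjusted p = 0.153 and 0.170). MGST3, a microsomal glutathione transferase, was at 279 and 248 CPM at day 10 and 190 to 239 CPM at day 14, the smallest gap to day 14 among the peaks (0.29, adjusted p = 0.481). Its call in the contrast (0.94, adjusted p = 0.0204) ended without any 1 library but replicates 1 and 2 of day 14 and replicate 3 of day 7 (adjusted p from 0.0557 to 0.370) and with library totals alone (0.0601).

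The 68 peaks ranged in size from 0.89 to 3.89 on the log2 scale, with a median of 1.52. The largest, SNCB at 3.89, rested on 20 counts over both day 10 libraries, and 46 peaks had a day 10 mean of at least 20 CPM. Of the 68, 65 were protein coding and 3 were long non-coding RNAs. The mean at day 10 was at least 2-fold above both flanking means for 40 and at least 4-fold for 10. The day 10 replicates lay within 1.5-fold of each other for 53. Taken as a share of all counts, the peaks made up 0.441%, 0.483% and 0.482% of the day 7 libraries, 1.28% and 1.30% of the day 10 libraries, and 0.501%, 0.749% and 0.436% of the day 14 libraries. These shares describe genes chosen on the same contrast and carry no test.

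**Figure D4:**
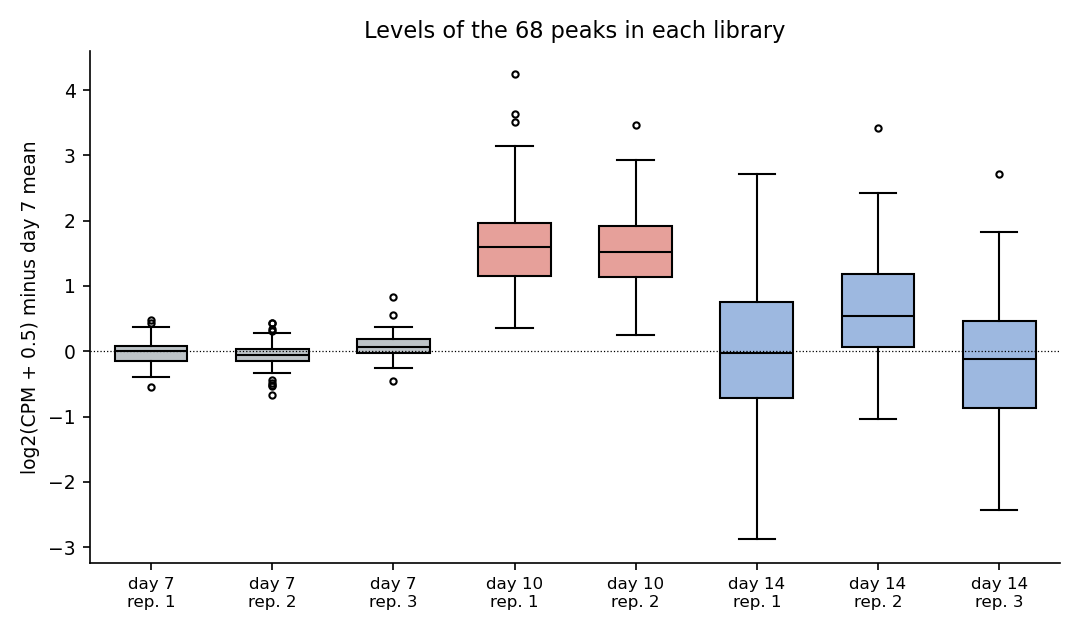
Level of each of the 68 peaks in each library, as log2(CPM + 0.5) minus the gene's mean over the 3 day 7 libraries, as boxes (quartiles, median line, whiskers to 1.5 interquartile ranges, circles beyond). Medians are 1.597 and 1.527 in the day 10 libraries and -0.03, 0.55 and -0.11 in the day 14 libraries, with replicate 2 of day 14 the highest of its day.

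All 68 peaks were also called in at least 1 of the comparisons with a single flanking day, which share the day 10 libraries: 58 against day 7, 44 against day 14 and 34 against both. Over all genes, day 10 against day 7 called 928 higher (4.17%) and 778 lower (3.50%), and day 10 against day 14 called 469 higher (2.11%) and 364 lower (1.64%). With library totals alone as the scaling, the split against day 7 was 597 higher and 1270 lower. Genes called in the same direction against both days numbered 36 higher (0.162%) and 4 lower (0.0180%). The mean at day 14 was above that at day 7 for 43 of the peaks and below it for 25.

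Across the whole course, the day 10 mean was the highest of 8 days for 42 of the 68 peaks. The other peaks were highest at day 28 (14 genes), day 0 (7), day 1 (4) or day 5 (1), so for these the high level at day 10 was not the maximum of the course. The day 28 mean was below the day 10 mean for 51 peaks, by at least 2-fold for 27, and above it for 17. ABRA went from 304 ± 112 CPM at day 10 (SD, n = 2) to 3.38 ± 0.991 at day 28 (n = 3). BMP10 stood at 35.8 ± 10.6 and 1.91 ± 0.406 CPM on these days, and CAMK1G, a calmodulin-dependent kinase, at 35.7 ± 1.82 and 2.46 ± 0.459 CPM. By contrast, NPPA was back at 585 ± 77.6 CPM at day 28, NPPB at 711 ± 112, ANKRD1 at 5907 ± 299 and TAGLN at 918 ± 196. The differences between days 10 and 28 were not tested here.

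**Figure D5:**
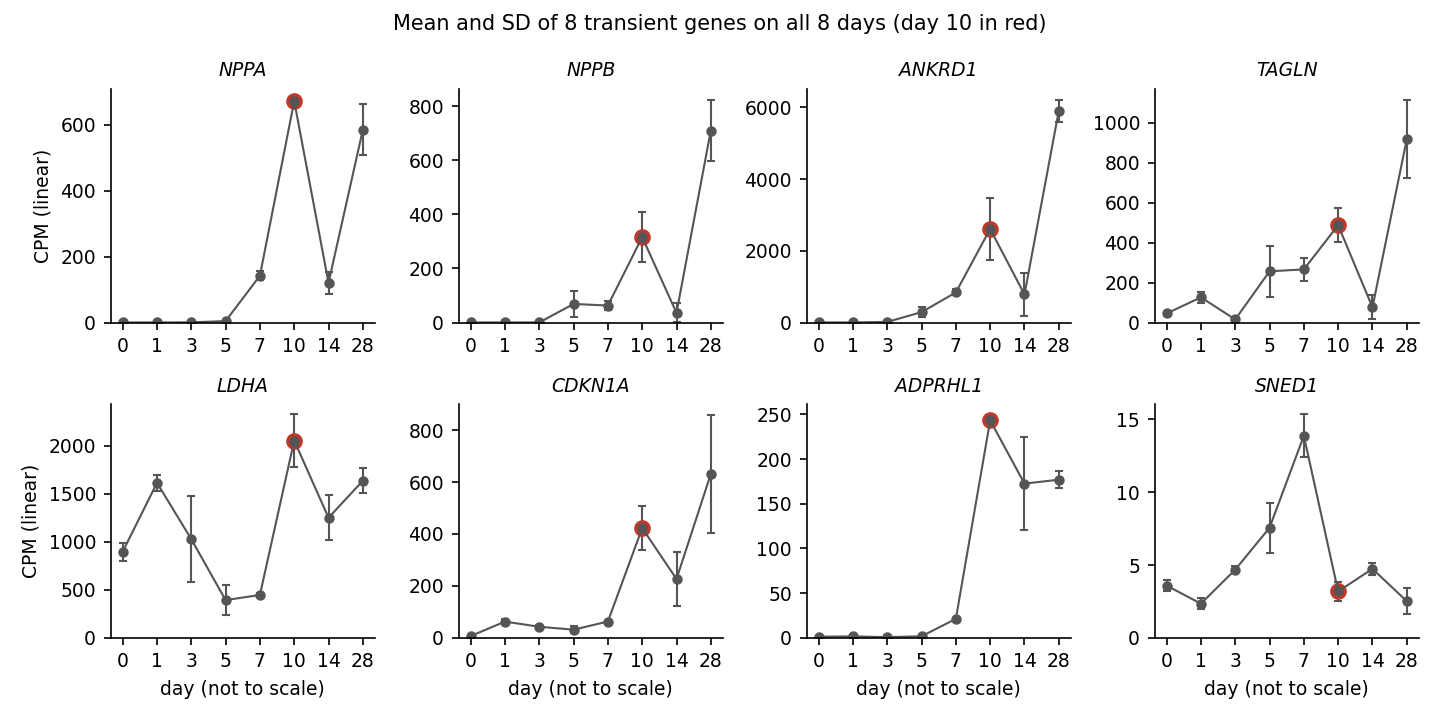
Mean CPM ± SD on the 8 sampled days (n = 3, n = 2 at day 10, linear axes, days not to scale) for 7 peaks and the dip SNED1, with day 10 ringed in red. NPPA, NPPB, ANKRD1 and TAGLN are low again at day 14 and high at day 28, while ADPRHL1 stays near its day 14 level.

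Only 5 genes were dips, and ADAMTS19 alone had at least 20 CPM on both flanking days. This metalloprotease gene (ENSG00000145808, chr5:129460281-129738683, plus strand) stood at 44.1, 39.9 and 41.5 CPM at day 7, at 18.2 and 17.01 CPM at day 10, and at 42.3, 30.4 and 46.2 CPM at day 14. Both day 10 libraries were below all others, and ADAMTS19 was lower by a log2 change of -1.21 (SE 0.27, adjusted p = 0.0438). The call ended without any 1 library but day 14 replicate 2 (adjusted p from 0.0858 to 0.513), with library totals alone (0.0535) and with the mitochondrially encoded genes left out (0.0503). The other dips fall outside the naming rule and are named after their values were seen. XKRX had 1 count in each day 10 library (0.129 and 0.118 CPM) and 1.07 to 1.93 CPM in the flanking libraries (adjusted p = 0.0117). SNED1 stood at 2.71 and 3.66 CPM at day 10, just below day 14 (4.29 to 5.01 CPM) and far below day 7 (12.2 to 14.7 CPM). PRDM16-DT, a long non-coding RNA, was at 0.646 and 1.06 CPM at day 10, barely below day 7 (1.08 to 2.35 CPM), and 7.28 to 11.7 CPM at day 14. ENSG00000235945 had 5 counts at day 10, and CAPZA2, which overlaps it on the opposite strand, had 2571. None of these 4 calls held without either day 10 library, with adjusted p from 0.186 (ENSG00000235945) to 0.612.

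The lists of oxidative phosphorylation, mitochondrial messenger RNAs, histones and cell cycle genes had no called member in the contrast. Of 78 nuclear genes of oxidative phosphorylation, 0 were called by edgeR and 5 by DESeq2. By edgeR, 27 were higher at an unadjusted p under 0.05, against 1279 of all 22245 genes. The list's median change was 0.37, and 35 members had both day 10 libraries above all others, against 4.58% of all genes. The 13 mitochondrially encoded messenger RNAs had a median of -0.09 and none without overlap. Among genes of at least 20 CPM, the share without overlap on the high side was 13.7% in the shortest of 4 equal groups by exon length and 3.52% in the longest. With the trend on exon length removed, 25 of the 78 had both day 10 libraries on top, as did 14 of the 24 glycolysis genes. Replication-dependent histones lay between the flanking days: against day 7 alone 17 of 30 were lower (3.50% of all genes, median -1.36), against day 14 alone 22 were higher (2.11% of all genes, median 1.56), and in the contrast edgeR called 0 (0 at an unadjusted p under 0.05, median 0.10). Cell cycle genes ran the same way. Against day 7, 6 of 38 were lower (3.50% of all genes) and 1 higher (4.17%), and against day 14, 11 were higher (2.11%). In the contrast 0 were called, and the median was 0.29. At an unadjusted p under 0.05, 7 were higher and 1 lower, against 1279 and 628 of all 22245 genes.

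The depth and the overlap of genes limit some of these values. Of the 73 transient genes, 34 overlap another annotated gene, 30 of them on the opposite strand, and for 11 the overlapping gene had at least 10% of their day 10 counts: CHST4, LRRN4CL, NIPAL4, PRSS23, GYG1, COLQ, RFTN1, KDELR3, DPCD, SNED1 and ENSG00000235945. For LRRN4CL that gene, BSCL2, lies on the same strand, and for the others on the opposite strand, with the strand setting of the counting not stated. These 11 are therefore uncertain. Only 5 peaks, NPPA, ABRA, ADPRHL1, PRSS23 and CAMK1G, were called in every alternative and without each library. All 68 had the same sign throughout, which the definition of a peak made nearly certain beforehand. With 1 day 10 library left out, 12 or 13 peaks were found in place of 68.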

How the data were processed

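RNA sequencing libraries were deposited by the authors as 1 table of raw counts per gene and library (unit: count). Per the series' design text and the submitters' processing notes, the authors used Trim Galore 0.65 to cut reads to a length of 50, STAR 2.7.0 for alignment against GRCh38 (GENCODE v38 gene models), and HTSeq-count. The strand setting is not given in the sources used here. The kit keeps strand, per the labels' protocols. The table had 57521 rows. Pseudoautosomal Y copies (44 rows, 0 counts) were left out, and 56387 of the remaining 57477 identifiers matched GENCODE v44, used for symbols and positions.

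All 23 libraries (8 days) were fitted together in edgeR 4.0.16 (R 4.3.3, limma 3.58.1): filterByExpr with a minimum of 10 counts, TMM scaling, a robust quasi-likelihood model with the day as factor and no replicate block, and the contrast day 10 minus the mean of days 7 and 14. P-values were adjusted by Benjamini-Hochberg over all 22245 genes. CPM uses TMM-scaled totals. The SE is the size of the log2 change divided by the square root of F. No set test was run: lists (39 with 784 genes, of which 753 were tested) are described by counts and medians. The members and lists were chosen with earlier results of these data known. Named genes are the 12 peaks and 12 dips with the largest change, a characterised symbol and a mean of at least 20 CPM (at day 10 for peaks, on the lower flanking day for dips), NPPA, LDHA and list members, transient ones first. One gene that the rule names is not reported here. Promoters came from RefSeq (GRCh38.p14).

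On simulated data of 21806 genes, this contrast called 15 of 50 genes raised 2-fold and 9 of 50 lowered 2-fold, 49 of 50 and 48 of 50 at 4-fold, and 2 unchanged genes. Changes of 2-fold were thus often missed. The changed genes were drawn only from those above a minimum CPM at day 10, so these counts do not cover weakly expressed genes. Alternatives were other scalings and filters, DESeq2 1.42.0, a replicate block, the 8 libraries alone, other definitions of a peak, and each library left out. Removal of a trend on exon length was added after the data were seen.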

Additional observations from a re-analysis of the deposited data

How the results depend on the processing

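Over the 95 genes called in the contrast, 1168 gene-level alternatives stayed past the threshold and 526 did not. None reversed its sign, which is no separate support, because these genes were chosen on the same libraries. Counts varied between settings. Genes called higher and lower in the contrast numbered 89 and 6, against 169 and 19 with DESeq2, 41 and 3 with library totals alone, 200 and 19 with no filter on low counts and 340 and 52 with only the 8 libraries of these days. Peaks and dips numbered 68 and 5, against 119 and 8, 32 and 2, 115 and 10, and 218 and 26 under the same settings. Of the 68, 66 were shared with DESeq2, 32 with library totals, 63 with no filter and 55 with the 8 libraries. With the exon length trend removed 10 genes were called lower. Dips numbered 2 with a minimum of 50 counts, and 3 with mitochondrially encoded genes left out or with upper-quartile factors. Defined as called against each flanking day alone, the peaks numbered 36. With 2-fold against the mean of each flanking day added to the definition used here, 40 of the 68 peaks and 3 of the 5 dips were left. Library totals moved the median of all genes by -0.12.

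Leaving out each library in turn gave 14 to 163 genes called higher and 0 to 12 lower, 12 to 133 peaks and 0 to 9 dips. The libraries that moved the count of genes called higher by over 1.5 times were both of day 10 (16 when replicate 1 was left out, 14 for replicate 2), replicates 2 (163) and 3 (40) of day 14, and replicates 1 (49) and 2 (39) of day 7. With 1 day 10 library, its spread is assumed to be that of the other days. Day 10 against day 7 called 202 to 786 higher and 90 to 879 lower over the libraries left out, 597 and 1270 with library totals, and 2678 and 2227 with the 8 libraries alone. Day 10 against day 14 called 121 to 524 higher and 65 to 267 lower, 729 and 585 with DESeq2, and 2245 and 2092 with the 8 libraries alone.

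With the replicate number as a block, 63 genes were called higher and 2 lower, with 48 peaks and 1 dip, all 48 shared. The calls of ASNS (adjusted p = 0.0888), BMP10 (0.0838) and ADAMTS19 (0.0601), among others, ended in that fit. Residuals of same-numbered libraries correlated between -0.0934 and 0.0972, and those of different-numbered libraries between -0.0972 and 0.0934. Residuals of the day 10 libraries mirror each other, so their correlations come in pairs of opposite sign. These values therefore cannot decide whether the numbers pair the libraries.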

Other observations

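Several muscle genes were called in the contrast but overlapped day 14, and are named here after their values were seen. FHL2, a LIM domain protein of the sarcomere, stood at 48.1, 62.4 and 61.7 CPM at day 7, at 624 and 435 CPM at day 10 and at 766, 583 and 520 CPM at day 14 (log2 change 1.48, and -0.23 against day 14 alone). MYOZ2 and CSRP3, both proteins of the Z disc, had changes of 1.29 and 1.24 in the contrast and of -0.17 and 0.35 against day 14. SMPX, a small muscle protein, had 1.04 and 0.12. All 4 were far lower at day 7. ACTA1, skeletal alpha-actin, overlapped day 7 instead: it stood at 235 and 249 CPM at day 10, within its day 7 range of 141 to 265 CPM, and at 21.6 to 48.2 CPM at day 14 (1.43, adjusted p = 0.0428, by edgeR). In all, 21 genes were called higher and 1 lower with overlap. The 1 lower, EGFEM1P, stood at 6.98 and 4.96 CPM at day 10, inside its day 7 range, and at 40.2 to 76.8 CPM at day 14.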
